A study of Mus musculus with 4 samples.

Results

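Natural killer (NK) cells, neutrophils and Ly6c2-positive monocytes of wild-type mice were compared between a B16-F10 melanoma and the spleen of the animals that carried it. The members are cell barcodes chosen by the measured counts of a few genes: a barcode entered a gate by its raw numbers of unique molecular identifiers (UMIs, each 1 captured mRNA molecule). Barcodes with at least 500 UMIs and at most 10% mitochondrial UMIs were kept. The NK gate took barcodes with at least 1 UMI of Ncr1, 0 UMIs of Cd3d, Cd3e and Cd3g together and at most 2 of Lyz2. The neutrophil gate took at least 1 UMI of Csf3r, at least 5 of S100a8 and S100a9 together, 0 of C1qa and at most 4 of Ltf. The monocyte gate took at least 1 UMI of Csf1r, 3 of Lyz2 and 2 of Ly6c2, with 0 of Flt3 and Ncr1. The gates held 5545 of the 11590 kept wild-type barcodes, out of 23212 kept in the series: 4499 in the spleen and 1046 in the tumour. By gate, spleen first, there were 1123 and 101 NK cells, 2856 and 658 neutrophils, and 809 and 309 monocytes. Within these numbers, 67 spleen and 2 tumour barcodes passed both the NK and the neutrophil gate, and 222 and 20 passed both the neutrophil and the monocyte gate.

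Mice were male, on a C57BL/6 background, 8 weeks of age, and either wild-type or Ndufa4-deficient (Ndufa4KO), and each had received B16-F10 cells, a mouse melanoma line, under the skin 18 days earlier. Spleen cells were sorted for CD45 and CD11b, and tumour cells for CD45 alone, so a splenic lymphocyte had to carry CD11b to be sampled and the share of barcodes in a gate was not compared across organs. Equal numbers of cells from 3 mice (3 to 4 in the extraction notes) were pooled into 1 droplet library per organ and genotype, so the wild-type comparison is 1 library against 1 library, with no test and no replicate error. The same gates in the Ndufa4KO pair of libraries, which differ in genotype and are no replicate, stand beside the wild-type values. The labels do not say in which cells Ndufa4 is missing, and all groups carried the tumour.

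NK cells are innate lymphocytes that kill by perforin and granzymes; in the spleen they mature from an immature to a terminal stage, while in tumours and other tissues NK cells exposed to TGF-beta can take on features of group 1 innate lymphoid cells (ILC1). Neutrophils are short-lived granulocytes released ready-made from the marrow, and Ly6c2-high monocytes are the circulating precursors of most macrophages of inflamed tissue. Solid tumours contain poorly perfused, hypoxic regions, where HIF factors bind the core letters ACGTG and switch on genes of glycolysis, angiogenesis and oxygen sensing.

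Median depth in the gates, spleen then tumour, was 4286 and 6728 UMIs per NK cell, 2908.5 and 4020 per neutrophil, and 13026 and 17700 per monocyte. The 4 libraries held 46499361 to 63560706 UMIs, and no deposited barcode had under 500. Pairs of libraries shared 6 to 22 barcodes. At the lower limits, 91 spleen and 64 tumour monocytes had exactly 2 Ly6c2 UMIs while 194 and 128 other barcodes failed with 1, and 153 and 2 neutrophils had 5 S100a8 and S100a9 UMIs while 216 and 16 failed with 4. At the Lyz2 limit of the NK gate, 69 and 5 cells had exactly 2 UMIs while 22 and 0 failed with 3. As a check of the labels, Ndufa4 gave 2026 and 238 UMIs in wild-type NK cells, 3544 and 615 in neutrophils and 3356 and 1726 in monocytes, against 13, 0 and 50 in the 3 Ndufa4KO tumour gates.

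The defining markers of each cell type were present on both sides (the plot of marker classes). All 10 NK markers were detected in the NK gate of both organs, all 10 neutrophil markers in the neutrophil gate and all 10 monocyte markers in the monocyte gate. The rule fixed part of this, since Ncr1 is among the NK markers, Csf3r, S100a8 and S100a9 among the neutrophil markers, and Csf1r, Lyz2 and Ly6c2 among the monocyte markers. Levels are given as UMIs per 1000000 of the gate's summed UMIs (CPM). In the NK gate the 10 NK markers summed to 17976 CPM in spleen and 10221 in tumour. The gates were not clean. Spleen neutrophils carried 9945 CPM of the 10 monocyte markers against 3338 CPM in tumour neutrophils, and spleen monocytes carried 7596 CPM of the 10 neutrophil markers against 2141 CPM in tumour monocytes. Of the 2856 spleen and 658 tumour neutrophils, 1597 and 522 held no Csf1r UMI. The 8 macrophage markers were higher in tumour monocytes, at 4851 CPM against 648. The 8 melanoma markers summed to 14.6 CPM in spleen neutrophils and 642 CPM in tumour neutrophils, where 94.4% of the Dct UMIs came from 3 barcodes. The part these other cells or free RNA play in a result was not tested. Values without barcodes that held at least 2 UMIs of another class's key genes are called filtered values below. They were computed for the wild-type pair only. The classes used were T, B, erythroid and melanoma cells and the cell types of the other gates. Macrophage genes were used for NK cells and neutrophils only, so filtered monocytes keep barcodes with macrophage genes. Plasma cell, platelet and dendritic genes were used in no gate. Filtered values are printed beside a named result where they turn its direction or end its call, and beside some others.

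**Figure D1:**
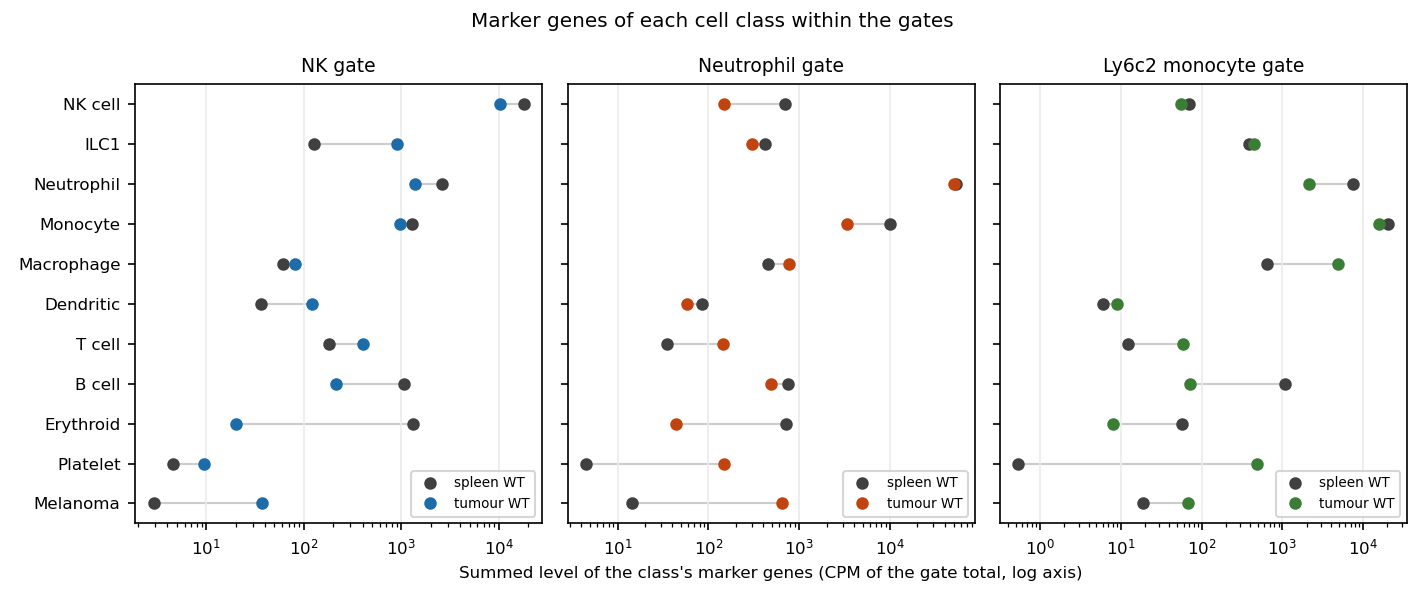
Summed level of each cell class's marker genes (CPM, log axis) in the 3 wild-type gates, with spleen in dark grey and tumour in colour; 1 point is 1 library. The class that names a gate is the highest on both sides, partly by the rule since it holds the gate's own genes, monocyte markers in the neutrophil gate are higher in spleen (9945 against 3338 CPM), and macrophage markers in the monocyte gate are higher in tumour (4851 against 648 CPM).

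A gene was counted as measured where its mean over the 2 libraries was at least 10 CPM with at least 20 UMIs in all, and as higher or lower where the levels were at least 2-fold apart (a log2 ratio, tumour over spleen, of at least 1). Of 8381 genes measured in NK cells, 5.13% were higher in tumour and 12.2% lower. In neutrophils the shares were 8.77% and 24.9% of 7644 genes, and in monocytes 7.92% and 16.5% of 7828. The median ratio of all measured genes was below 0 in each gate, at -0.23, -0.48 and -0.27; centred on it, 53.6%, 58.0% and 55.3% of the genes past 2-fold were the higher ones, against 29.5%, 26.0% and 32.5% without centring. List values below are therefore set beside these medians. Brackets after a ratio give its exact 95% interval for counting error only, since mice cannot be told apart within a pool.

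Of the genes measured in both pairs and higher in wild-type tumour, 250 of 357 (70.0%) were also higher in the Ndufa4KO pair in NK cells, 380 of 579 (65.6%) in neutrophils and 404 of 572 (70.6%) in monocytes, which is 64.9%, 69.0% and 80% of the genes higher in that pair. In the Ndufa4KO pair 5.15%, 8.06% and 7.3% of the genes measured there were higher in tumour, and 14.2%, 18.4% and 15.1% lower. Of those lower in wild-type tumour, 579 of 981 (59.0%), 850 of 1864 (45.6%) and 835 of 1260 (66.3%) were also lower, which is 51.0%, 62.7% and 76.3% of the genes lower there. The Ndufa4KO tumour neutrophil gate held 89 cells, the fewest of any gate.

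**Figure D2:**
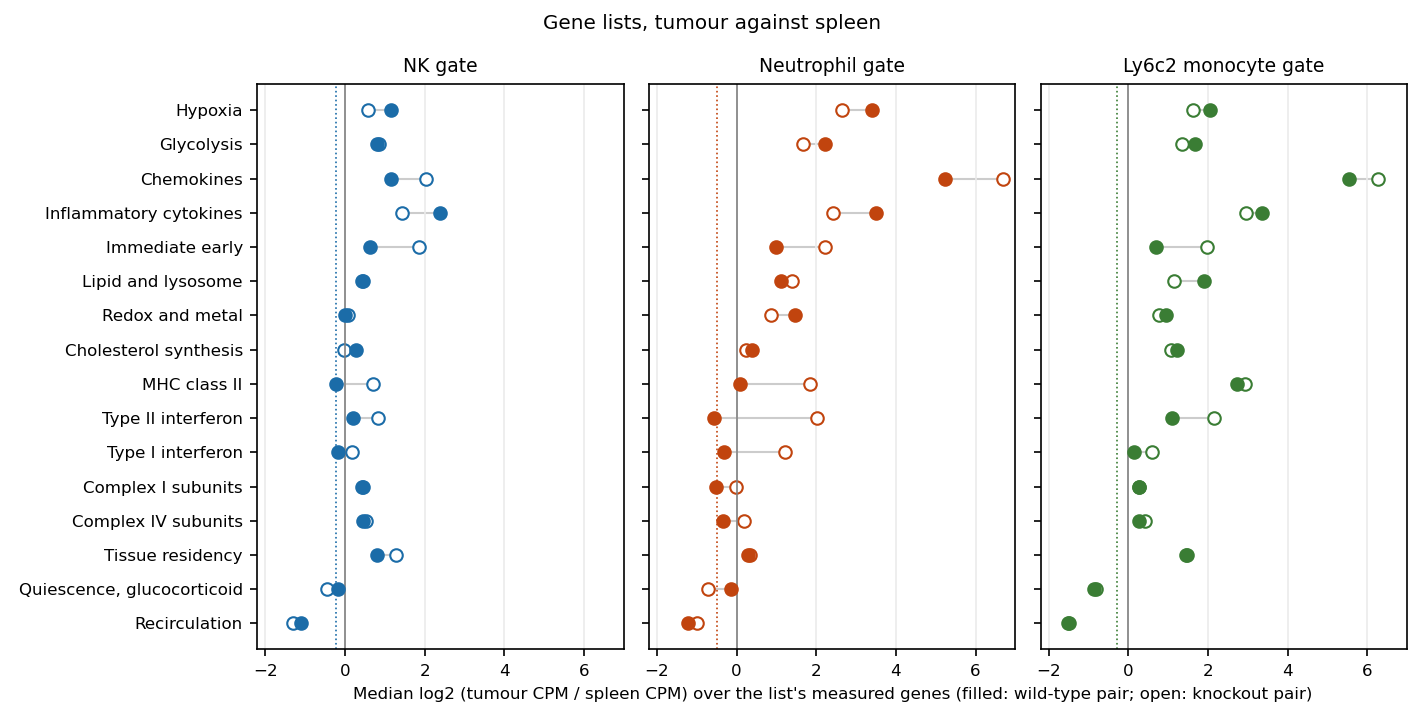
Median log2 ratio (tumour CPM over spleen CPM) of the measured genes of 16 gene lists in the 3 gates; filled points are the wild-type pair, open points the Ndufa4KO pair, and the dotted line is the median of all measured wild-type genes. Chemokine and inflammatory cytokine medians are the highest in the wild-type neutrophil and monocyte gates, and recirculation is lowest in all 3. The interferon medians of neutrophils lie on opposite sides of 0 in the 2 pairs. In the filtered wild-type cells (0.19 and 0.045) they lie on the same side as the unfiltered Ndufa4KO pair.

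In NK cells, the genes of terminal maturation were low in the tumour. Of 16 maturation genes, all measured, 11 were lower and 3 higher, with a median ratio of -1.56 against -0.23 for all genes, and -1.71 in the Ndufa4KO pair. The 11 include Itgam, which encodes CD11b, the protein that the spleen sort required and the tumour sort did not. S1pr5, the sphingosine receptor that mature NK cells use to leave lymph nodes and marrow, was 257 CPM in spleen and 25.5 in tumour, a log2 ratio of -3.33 [-4.07, -2.68]. Klrg1, an inhibitory lectin receptor of the terminal stage, was 147 and 24.2 CPM, a ratio of -2.60 [-3.37, -1.94]. Both receptors were equally or nearly as low in the Ndufa4KO tumour, with ratios of -3.33 and -2.16. Cma1, a mast cell type chymase that mature mouse NK cells transcribe, was 297 and 53.7 CPM. Cx3cr1, the fractalkine receptor, was 80.5 and 12.1 CPM on 9 tumour UMIs. The adhesion molecule Mcam, outside the list, gave 425 UMIs in 315 spleen cells and 0 in tumour, at least 19.1-fold lower.

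Transcription factors differed less. Zeb2, which acts late in maturation, was 1169 CPM in spleen and 364 in tumour, a ratio of -1.68. Tbx21 (T-bet) was 228 and 113 CPM, just past 2-fold at -1.01, and Eomes was 650 and 358 CPM, a ratio of -0.86 that did not reach 2-fold. Prdm1 (Blimp-1) was 136 and 34.9 CPM, and Klf2, of the recirculation list, a factor that keeps lymphocytes quiescent and circulating, 978 and 289 CPM. After every cell was thinned to 500 UMIs, 38.7% of spleen and 17.8% of tumour NK cells held a Klf2 UMI (96.8% and 59.4% before thinning), where B cells of the same libraries gave 33.1% and 30.5%; the B cells had median depths of 6573 and 5467 UMIs.

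**Figure D3:**
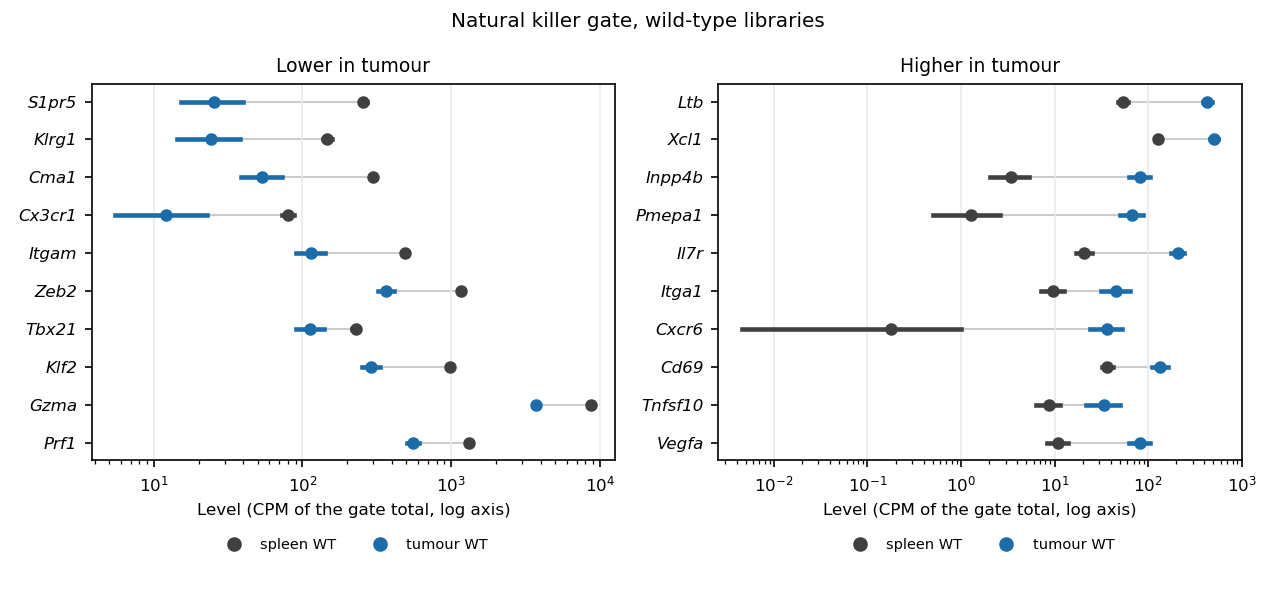
Levels of 20 genes in the wild-type NK gate (CPM of the gate total, log axis; 1123 spleen cells in grey, 101 tumour cells in blue), with bars for the exact 95% interval of the count. The left panel holds maturation and effector genes that are lower in tumour, from S1pr5 (257 to 25.5 CPM) to Prf1 (1315 to 554), and the right panel ILC1, residency and hypoxia genes that are higher, with Cxcr6 on 1 spleen UMI.

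Integrin alpha M, encoded by Itgam and read by the CD11b sort, was 486 CPM in spleen and 114 in tumour NK cells, and 81.9% and 36.6% of cells held a UMI, or 21.8% and 3.96% after thinning. The spleen sort required this protein and the tumour sort did not, so the sort differs along with the organ, and its part in the NK differences was not tested beyond 1 restriction. Restricting both sides to cells with an Itgam UMI left 920 spleen and 37 tumour cells. Of 8233 genes measured there, 555 were higher and 1179 lower, against 430 and 1026 of 8381 without the restriction. With 37 tumour cells in place of 101 the counting error is larger, so no effect of the sort is read from this change.

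Cytotoxic genes had no common direction: 3 of 15 measured were higher and 3 lower, with a median of -0.05. Gzma, the trypsin-like granzyme A, was 8665 CPM in spleen and 3696 in tumour, a ratio of -1.23 [-1.29, -1.17], and 92.0% and 54.5% of cells held a UMI after thinning, against 1.12% and 0.847% of B cells. Prf1, the pore-forming perforin, was 1315 and 554 CPM, a ratio of -1.25. These 2 genes were closer to equal in the Ndufa4KO pair, at -0.66 and -0.76. Gzmb, the caspase-cleaving granzyme B, differed little in the wild type, at 492 and 458 CPM (-0.10 [-0.27, 0.06]), and was higher in Ndufa4KO tumour at 1.17. Gzmc gave 6 UMIs in spleen and 985 in tumour, but 93.9% of these lay in 3 of the 23 cells that held any.

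Of the 11 Ly49 genes, which encode MHC class I receptors held by subsets of NK cells, 9 were measured, 3 were lower and none higher, with a median of -0.93. The activating receptor Klra8 (Ly49H) was 1629 CPM in spleen and 533 in tumour. Of 23 measured further NK receptor genes, 4 were lower and 3 higher, with a median of -0.38 beside -0.23 for all genes. Il18rap, a chain of the interleukin 18 receptor, was 882 and 314 CPM. Klrk1, which encodes NKG2D, was 1376 and 1269 CPM, a ratio of -0.12.

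Genes of ILC1 and of TGF-beta responses were higher in tumour NK cells: 10 of 17 measured members were higher and 1 lower, with a median ratio of 1.36, and 1.62 in the Ndufa4KO pair. Only 5 of the 10 exceeded the level in both B and T cells of the same tumour library. Those cells transcribe some of the genes themselves, so their level is a comparison only. Xcl1, the chemokine that attracts type 1 dendritic cells, was 126 CPM in spleen and 503 in tumour, a ratio of 1.99 [1.81, 2.18], against 2.79 CPM in tumour B cells and 40.1 in T cells. Ltb, encoding lymphotoxin beta, was 54.2 and 431 CPM, a ratio of 2.99 [2.76, 3.22], in 67 of the 101 tumour cells, but B cells reached 648 CPM. Pmepa1, a target and brake of TGF-beta signalling outside the list, gave 7 and 50 UMIs, a ratio of 5.73 [4.58, 7.12], spread over 28 tumour cells. Smad7, an inhibitory SMAD induced by TGF-beta, was 90.8 and 207 CPM, close to the 190 CPM of tumour B cells.

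The surface markers that separate ILC1 from NK cells were rare transcripts. Itga1 (CD49a) was 9.58 CPM in spleen and 45.6 in tumour, Cxcr6 gave 1 UMI and 27 UMIs, a ratio of 7.65 [5.05, 13], and Tnfsf10 (TRAIL) was 8.68 and 33.6 CPM. They were found in 18, 10 and 12 tumour NK cells, and 55.6% of the Cxcr6 and 56.0% of the Tnfsf10 UMIs were in 3 cells. These are unthinned cell numbers, and the unthinned spleen shares were 3.03%, 0.0890% and 3.83%. After thinning, Itga1 was in 0.267% of spleen and 0% of tumour NK cells, and Tnfsf10 in 0.445% and 0%. Cxcr6 went the other way, at 0% and 3.96%. The tumour shares of 0% allow up to 3.59%, so the thinned shares give no direction for Itga1 and Tnfsf10. Il7r, the interleukin 7 receptor, was 20.8 and 207 CPM in 22 cells; among cells with an Itgam UMI its ratio turned from 3.31 to -0.41. Beside these, the 8 T cell markers summed to 182 CPM in spleen and 405 in tumour NK cells, with Cd3d, Cd3e and Cd3g at 0 by the gate and Cd4 at 0 in tumour; their part in the result was not tested.

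Recirculation genes, which guide cells through blood and lymph, were lower in tumour NK cells in 9 of 15 measured cases and higher in 1, with a median of -1.11. Itgal, the alpha chain of LFA-1, was 966 and 364 CPM. Among 11 measured residency genes, 5 were higher and 1 lower. Cd69, which opposes exit by binding S1PR1, was 36.7 and 134 CPM, below the 376 CPM of tumour B cells. Per cell, thinned to 500 UMIs, the maturation list, Itgam included, gave a mean of 7.49 UMIs in spleen and 3.17 in tumour. Of the 101 tumour cells, 0 lay above the spleen's 90th percentile, which allows a share of up to 3.59%.

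Chemokine genes had the highest list median in tumour neutrophils before filtering. Of 14 measured chemokine genes 11 were higher and 1 lower, with a median ratio of 5.24 against -0.48 for all genes. In the filtered cells it was 4.20, next to 4.24 for the list of published tumour neutrophil genes described below. Cxcl2, a ligand of the neutrophil receptor CXCR2, was 22.8 CPM in spleen and 15826 in tumour, a ratio of 9.44 [9.29, 9.59], and 7.26 in the Ndufa4KO pair. After thinning, 1.58% of spleen and 78.7% of tumour neutrophils held a Cxcl2 UMI (5.11% and 87.4% unthinned), against 0% and 20.3% of B cells. Tumour B cells held 3443 CPM of Cxcl2; the source of that signal was not tested. Cxcl3, a second CXCR2 ligand, gave 1 spleen UMI and 15086 tumour UMIs, a ratio of 16.03 [13.55, 21.33]. Ccl3 and Ccl4, which attract monocytes and lymphocytes, were 14.7 and 24.8 CPM in spleen and 3118 and 3076 CPM in tumour. The receptor Cxcr2 itself was lower but short of 2-fold, at 1339 and 930 CPM (-0.53), and -1.25 in the filtered cells.

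Hypoxia genes were higher in 17 of 21 measured cases and lower in 1, with a median of 3.39, and all 17 exceeded the B and T cell levels of the tumour library. Hilpda, a lipid droplet protein induced by HIF, was 1.31 CPM in spleen and 1888 in tumour, a ratio of 10.49 [9.88, 11.18]. Vegfa, the main angiogenic factor, was 6.38 and 271 CPM, and the oxygen-sensing hydroxylase Egln3 13.6 and 465 CPM. The exception was Pfkfb4, an isoform of the enzyme that makes the glycolytic activator fructose 2,6-bisphosphate, at 138 and 50.9 CPM. Glycolysis genes followed, with 14 of 16 higher, none lower and a median of 2.22. Tpi1, triose phosphate isomerase, was 67.0 and 896 CPM, a ratio of 3.74, and Ldha, lactate dehydrogenase A, 200 and 1544 CPM, a ratio of 2.95. The glucose transporter Slc2a1, of the hypoxia list, was 35.5 and 372 CPM.

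**Figure D4:**
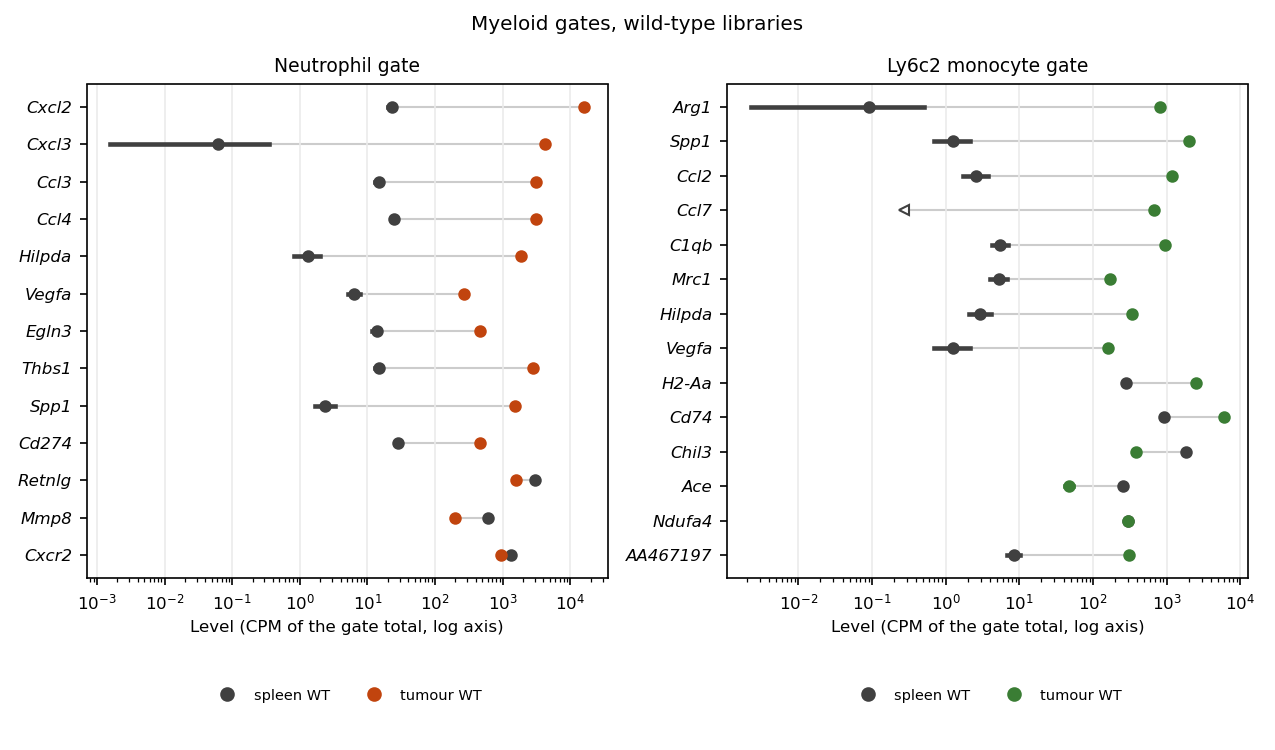
Levels of selected genes in the wild-type neutrophil and Ly6c2 monocyte gates (CPM of the gate total, log axis; spleen in grey, tumour in colour), with bars for the exact 95% interval of the count and an open triangle at the level of 3 counts for Ccl7, which had 0 spleen UMIs. Chemokine and hypoxia genes lie far to the right in tumour, such as Cxcl2 in neutrophils (22.8 to 15826 CPM), while Retnlg and Mmp8 in neutrophils and Chil3 and Ace in monocytes lie to the left.

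A list of genes described for tumour-infiltrating neutrophils in published work, compiled from memory, was higher in 22 of 26 measured cases and lower in 2, with a median of 3.97 (3.30 in the Ndufa4KO pair). Spp1 (osteopontin) was 2.38 CPM in spleen and 1514 in tumour, and the matrix protein Thbs1 14.7 and 2793 CPM. Cd14, the lipopolysaccharide co-receptor, was 61.6 and 1428 CPM, and Tnfrsf23, a decoy receptor for TRAIL, 15.1 and 285 CPM. Cd274, the checkpoint ligand PD-L1, was 28.4 and 470 CPM, a ratio of 4.05 [3.90, 4.20], and a UMI was found after thinning in 1.65% and 19.0% of neutrophils against 0.562% and 5.08% of B cells. Siglecf, a marker of some tumour neutrophils, was 6.31 and 8.29 CPM, under the limit for a measured gene. 

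Inflammatory cytokine genes were higher in 10 of 13 measured cases and lower in none. Ptgs2 (COX-2) was 97.5 CPM in spleen and 1111 in tumour, Il1rn, the interleukin 1 receptor antagonist, 115 and 1330 CPM, and Tnf 6.13 and 69.4 CPM. Il1b itself stayed within 2-fold, at 1696 and 3327 CPM, a ratio of 0.97 and 0.31 in the filtered cells. Csf1, the growth factor of monocytes and macrophages, was 55.9 and 725 CPM. Arg1 and Nos2, the enzymes that compete for arginine, gave 0 and 1 UMIs in spleen and 2139 and 231 in tumour. Arg1 was at least 3153-fold higher, a log2 ratio of at least 11.62 and of at least 4.63 in the filtered cells; 48 of 658 tumour neutrophils held it and 3 of them held 39.8% of its UMIs. The ratio of Nos2 was 10.00 [7.50, 15.31].

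Stress genes of several kinds were higher. In the integrated stress response, 7 of 8 measured genes were higher with a median of 2.0, against 0.44 in the Ndufa4KO pair. The cystine transporter Slc7a11 was 166 and 912 CPM, and the factor Ddit3 (CHOP) 56.3 and 295 CPM. Of 15 redox and metal genes, 9 were higher and 2 lower: Fth1, the ferritin heavy chain that stores iron, was 2307 and 33824 CPM, and Hmox1, which degrades haem, 115 and 780 CPM. Among survival and arrest genes, Cdkn1a (p21) was 26.5 and 761 CPM and Gadd45b 51.2 and 1349 CPM.

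Genes of mature circulating neutrophils went both ways, with 5 of 19 higher and 8 lower and a median of -0.93; in the filtered cells 3 were higher and 13 lower, with a median of -1.36. Retnlg, a resistin-like protein, was 3018 CPM in spleen and 1584 in tumour, a ratio of -0.93, and -1.53 in the filtered cells. The collagenase Mmp8 was 605 and 200 CPM, and Ly6g, the surface protein by which mouse neutrophils are recognised, 41.8 and 13.3 CPM. Padi4, which citrullinates histones in extracellular traps, was 94.0 and 27.9 CPM. On the higher side were the lectin receptors Clec4d, at 449 and 1654 CPM, and Clec4e, at 219 and 857 CPM, with the decoy receptor Il1r2 at 273 and 676 CPM; the ratio of Il1r2, 1.31, was 0.56 in the filtered cells.

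Adhesion and recirculation genes were lower in 9 of 15 measured cases and higher in 1, with a median of -1.23. Itgal was 871 and 164 CPM, a ratio of -2.41 [-2.53, -2.29], and Itga4, the alpha chain of VLA-4, 843 and 155 CPM, a ratio of -2.44. Itga4 was short of 2-fold in the Ndufa4KO pair at -0.67. The glucocorticoid-induced genes Tsc22d3 (GILZ) and Fkbp5 were 674 and 215 CPM in spleen and 222 and 63.9 CPM in tumour, with ratios of -1.60 and -1.75 that were -1.73 and -1.61 in the Ndufa4KO pair. Chil3, a chitinase-like protein of immature neutrophils and of monocytes, was 731 and 83.8 CPM, but its ratio turned from -3.13 to 0.80 in the filtered cells.

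Of 37 measured type I interferon genes, 8 were higher and 3 lower in wild-type tumour with a median of -0.33, against 20 higher, none lower and 1.22 in the Ndufa4KO pair. Of 21 measured type II genes, 4 were higher and 4 lower, with a median of -0.56, against 20 higher of 23 and 2.02. In the filtered wild-type cells the type I median was 0.19, with 7 genes higher and 7 lower. The type II median was 0.045 there, with 4 genes higher and 6 lower. Both lie on the same side of 0 as the Ndufa4KO medians, which were computed without that filter. Isg15, a ubiquitin-like antiviral protein, was higher in both pairs, at 47.0 and 340 CPM in the wild type, with ratios of 2.85 and 3.71. Whether the pairs differ was not tested, since each is 1 library a side and the Ndufa4KO tumour gate held 89 cells.

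In monocytes, genes of macrophage differentiation were higher in 18 of 22 measured cases and lower in 1, with a median ratio of 3.00 against -0.27 for all genes, and 2.23 in the Ndufa4KO pair. The complement subunits C1qa, C1qb and C1qc, which mark mature tissue macrophages, were 6.85, 5.50 and 5.68 CPM in spleen and 657, 939 and 492 CPM in tumour. Tumour B cells held 14.0, 9.78 and 4.19 CPM of them. C1qb UMIs were found in 44.3% of tumour monocytes unthinned and 17.5% thinned, against 4.20% and 0.247% in spleen and 0% of thinned tumour B cells. The scavenger receptor Mrc1 (CD206) was 5.23 and 173 CPM, and the macrophage transcription factor Maf 67.1 and 504 CPM. Leaving out cells with a C1qa UMI kept 776 spleen and 207 tumour cells. Of 7769 genes measured there, 572 were higher and 1280 lower, against 620 and 1290 of 7828.

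Monocyte chemokines were higher in 15 of 16 measured cases with none lower and a median of 5.53; 9 of the 15 exceeded the B and T cell levels. Ccl2, the main ligand of the monocyte receptor CCR2, was 2.61 CPM in spleen and 1168 in tumour, a ratio of 8.80 [8.28, 9.38], against 5.59 CPM in tumour B cells. Ccl7 and Ccl12, further CCR2 ligands, gave 0 spleen UMIs and 3916 and 1395 tumour UMIs, at least 2485-fold and 885-fold higher. Cxcl2 and Cxcl3 were 1264 and 480 CPM in tumour monocytes, below the 3443 and 1143 CPM of tumour B cells, so no difference is read from them.

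Suppressive and repair genes were higher in 13 of 18 measured cases and lower in 1, with a median of 3.89. Arg1 gave 1 UMI in spleen and 4783 in tumour, a ratio of 13.15 [10.67, 18.46], and 33.7% of tumour monocytes held it (13.3% thinned, against 0.847% of B cells). Spp1 was 1.26 and 2008 CPM, against 549 CPM in tumour B cells. Pf4, a chemokine of platelets and of some macrophages, lies outside the list and gave 1 and 2322 UMIs, a ratio of 12.11 [9.63, 17.41]. The platelet gene Ppbp gave 0 and 473 UMIs with 87.5% in 3 cells, and the 6 platelet markers, Pf4 included, summed to 0.541 and 480 CPM.

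MHC class II genes, which present antigen to CD4 T cells, were higher in 7 of 7 measured cases, of 10 listed, with a median of 2.73 and 2.92 in the Ndufa4KO pair; 3 of the 7 exceeded the B and T cell levels. H2-Aa was 277 and 2489 CPM, a ratio of 3.17 [3.11, 3.22], and Cd74, the invariant chain, 910 and 6023 CPM. Thinned to 500 UMIs, 7.66% of spleen and 42.1% of tumour monocytes held an H2-Aa UMI, and 9.90% and 60.0% in the Ndufa4KO pair; B cells, which make the protein, gave 74.7% and 80.5%. The list mean per cell was 0.978 UMIs in spleen and 6.24 in tumour with a tumour median of 2 and 90th percentile of 19, so the monocytes were uneven. Type II interferon genes were higher in 13 of 23 cases with none lower and a median of 1.11. Cxcl9, the interferon-gamma chemokine that attracts CXCR3 cells, was 27.0 and 453 CPM, with 36.6% of the tumour UMIs in 3 of 59 cells, and Cxcl10 11.1 and 409 CPM. For type I genes, 10 of 36 were higher and none lower with a median of 0.14. Isg15 was 30.4 and 281 CPM.

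Hypoxia genes were higher in 15 of 21 cases and glycolysis genes in 13 of 16, with medians of 2.04 and 1.68 and none lower. Gapdh was 526 and 2807 CPM, a ratio of 2.42 [2.37, 2.46], and Vegfa 1.26 and 159 CPM. Cholesterol synthesis genes were higher in 9 of 12 cases and lower in none: Fdps was 16.0 and 119 CPM, and Sqle, which makes the first oxygenated sterol precursor, 5.32 and 46.3 CPM. Lipid and lysosome genes were higher in 14 of 20 cases and lower in none, with Fabp5, a fatty acid carrier, at 35.6 and 865 CPM and the lipase Lpl at 30.1 and 257 CPM. Of 17 Fc and scavenger receptors 10 were higher and none lower; Fcgr1, the high-affinity IgG receptor, was 67.2 and 442 CPM, and Cd14 38.4 and 590 CPM.

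On the lower side, 10 of 12 measured recirculation genes were lower in tumour monocytes and none higher, with a median of -1.49 and -1.52 in the Ndufa4KO pair. Itgal and Itga4 were 677 and 979 CPM in spleen and 128 and 208 CPM in tumour. Both monocyte subset lists were lower more often than higher: 9 of 22 classical genes were lower and 4 higher, and 10 of 16 non-classical genes lower and 2 higher. Chil3, of the classical list, was 1803 and 384 CPM, and Ace and Adgre4, of the non-classical list, 252 and 177 CPM in spleen and 47.2 and 33.3 CPM in tumour. Nr4a1, the factor on which non-classical monocytes depend, was 252 and 87.0 CPM, a ratio of -1.54, against -0.28 in the Ndufa4KO pair. The granule gene Ngp gave 5344 and 2 UMIs, a ratio of -10.45 [-13.50, -8.60], with 62.2% of its spleen UMIs in 3 cells and a ratio of -2.64 in the filtered cells.

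Across the 3 gates, 110 of 6605 genes measured in each (1.67%) were higher in tumour in every gate and 274 (4.15%) lower. Of the 110, 94 were also higher in all 3 gates of filtered cells and 67 in the Ndufa4KO pair; of the 274, 178 and 149 were also lower. The gates of a library share its free RNA, and 85 of the 110 were higher in tumour B cells too and 52 in tumour T cells. These 2 counts leave out genes with 0 UMIs on a side, and the spleen T cell gate held 67 cells. Spp1, for one, was not counted, with 0 UMIs in spleen B and T cells and 393 and 902 in tumour. The share over all measured genes in B and T cells is not given here. The genes with the largest ratio in their lowest gate were Cxcl3, Cxcl2, Arg1, Thbs1 and Spp1. In NK cells Cxcl2 and Spp1 were 639 and 258 CPM, below the 3443 and 549 CPM of tumour B cells.

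Of the 25 hypoxia genes, 9 were higher in every gate: Bnip3, Egln3, Ero1l, Fam162a, Hilpda, P4ha1, Pfkfb3, Plin2 and Vegfa. Of these, Bnip3, Ero1l and Pfkfb3 were short of 2-fold in filtered NK cells, at 0.24, 0.88 and 0.81, and Ero1l, P4ha1 and Pfkfb3 in Ndufa4KO NK cells, at 0.99, 0.43 and 0.28. Their promoters were searched for ACGTG on either strand (the reverse complement reads CACGT) in the 250 bases before the annotated start, with RefSeq sequence of GRCm38.p6. All 9 matched by symbol, and 8 held the letters in at least 1 window, beside 18.5% of 27025 genes. A match describes the letters only. The 9 come from a list chosen as hypoxia genes, and its other members were not looked at separately. The share is therefore not read as a result of these data. The windows of 3 of them are shown, 5′ to 3′ on the gene's strand with the match in capitals, because these genes cover an oxygen sensor, a mitochondrial protein and a collagen enzyme: Egln3 at chr12:54203875-54204124 (minus strand), Bnip3 at chr7:138909507-138909756 (minus strand, where both strands match within 1 run of capitals) and P4ha1 at chr10:59323046-59323295 (plus strand).
Egln3: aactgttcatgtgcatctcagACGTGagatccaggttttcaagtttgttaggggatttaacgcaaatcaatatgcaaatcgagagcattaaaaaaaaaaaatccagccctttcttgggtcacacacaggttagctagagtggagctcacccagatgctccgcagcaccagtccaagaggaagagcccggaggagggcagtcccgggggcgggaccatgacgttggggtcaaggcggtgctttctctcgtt
Bnip3: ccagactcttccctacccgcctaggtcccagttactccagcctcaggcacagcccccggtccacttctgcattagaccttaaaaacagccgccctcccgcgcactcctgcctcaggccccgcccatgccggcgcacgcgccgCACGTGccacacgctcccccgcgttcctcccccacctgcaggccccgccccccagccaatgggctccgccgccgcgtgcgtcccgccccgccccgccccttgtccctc
P4ha1: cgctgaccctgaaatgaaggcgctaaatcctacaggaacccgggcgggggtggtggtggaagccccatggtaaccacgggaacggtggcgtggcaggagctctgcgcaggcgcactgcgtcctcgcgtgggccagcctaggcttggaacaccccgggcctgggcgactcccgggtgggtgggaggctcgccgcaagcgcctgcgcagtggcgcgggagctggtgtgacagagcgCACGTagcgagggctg

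Egln3, the hydroxylase that marks HIF for destruction when oxygen is present, had ratios of 4.85 in NK cells, 5.09 in neutrophils and 5.41 in monocytes. Its match lies 229 bases before the start. Bnip3, which sits in the outer mitochondrial membrane and promotes mitophagy, had ratios of 1.43, 3.80 and 3.64. P4ha1, a subunit of the prolyl hydroxylase that stabilises collagen, had ratios of 1.17, 3.48 and 2.04, with its match 16 bases before the start. In NK cells 3 of the 11 higher hypoxia genes exceeded the B and T cell levels and 7 had over 50% of their tumour UMIs in 3 cells: Egln3 was 41.6 CPM against 79.6 CPM in tumour B cells, and Hilpda 137 against 365 CPM. Vegfa stood above them, at 10.8 CPM in spleen and 81.9 in tumour NK cells, against 33.5 CPM in B and 8.82 in T cells.

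Counted per cell at 500 UMIs, tumour neutrophils held a mean of 5.98 list UMIs against 1.22 in spleen, and 60.3% [56.5, 64.1] lay above the spleen's 90th percentile against 4.38% of spleen cells. Tumour monocytes held 2.41 against 0.959, with 36.9% [31.5, 42.5] above the percentile against 8.28% of spleen monocytes. Tumour NK cells held 1.19 against 0.783, with 6.93% [2.83, 13.8] above, against 4.63% of spleen NK cells; these intervals cover counting of cells within 1 library. Within the tumour the spread was wide: the 10th percentile of neutrophils was 1 list UMI and the 90th was 13. Glycolysis followed the same order, with 69.8%, 56.0% and 14.9% of tumour neutrophils, monocytes and NK cells above the spleen percentile. The shares of spleen cells above it were 9.45%, 8.41% and 2.85%.

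**Figure D5:**
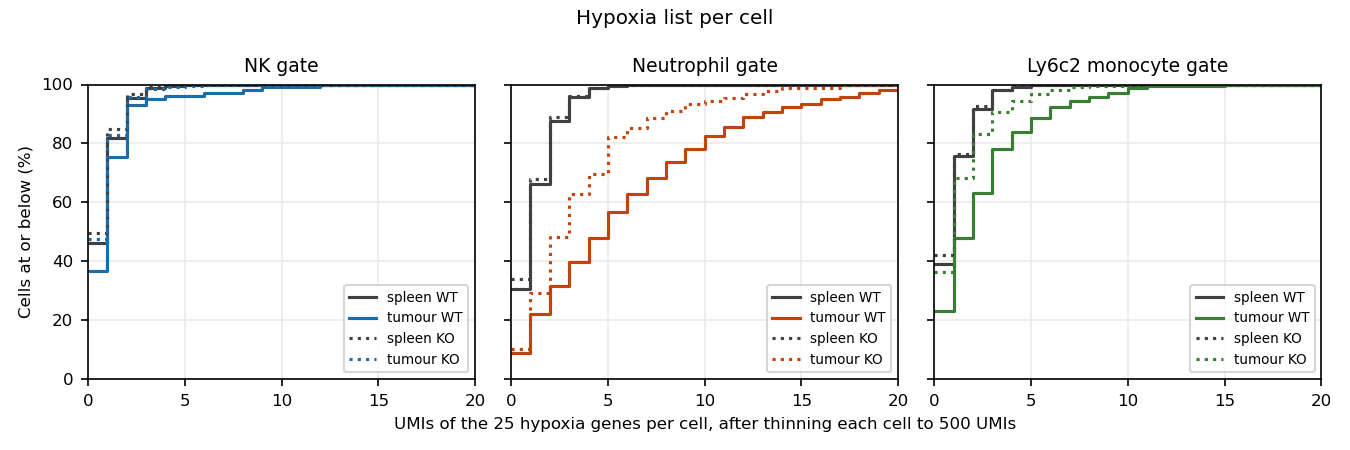
Cumulative share of cells (%) by their UMIs of the 25 hypoxia genes after thinning each cell to 500 UMIs, for the 3 gates; solid lines are wild-type, dotted lines Ndufa4KO, grey the spleen and colour the tumour. The tumour curve of neutrophils lies furthest to the right (mean 5.98 against 1.22 UMIs), that of monocytes less so (2.41 against 0.959), and the NK curves nearly overlap (1.19 against 0.783); the axis ends at 20 UMIs.

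Among the genes lower in every gate, S1pr5 had ratios of -3.33, -2.12 and -2.36 in NK cells, neutrophils and monocytes, and -3.33, -2.47 and -2.03 in the Ndufa4KO pair. With gates on thinned counts, which left 15 tumour and 143 spleen monocytes, its monocyte ratio was 0.13. Itgal had -1.41, -2.41 and -2.41, and Idh1, the cytosolic isocitrate dehydrogenase that makes NADPH, -2.85, -2.34 and -2.05. Immunoglobulin genes Jchain, Igha and Igkc were the 3 with the lowest ratio of all in this group. Beside them, the 6 plasma cell markers summed to 2628 CPM in spleen and 99.3 CPM in tumour in the NK gate; their part in the result was not tested.

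None of the 12 complex IV subunit genes was past 2-fold in any gate, with medians of 0.46, -0.34 and 0.27 in NK cells, neutrophils and monocytes, and 1, 2 and 0 of the 36 complex I genes were. In the filtered neutrophils 4 complex I genes were higher and 5 lower. Ndufa4, the subunit deleted in the other genotype, was 366 and 319 CPM in NK cells, 222 and 170 in neutrophils and 303 and 296 in monocytes. AA467197, a paralog of Ndufa4 that can take its place in complex IV, was named after its values were seen. It was 8.38 CPM in spleen and 310 in tumour monocytes, a ratio of 5.21 [4.91, 5.53], with 31.5% of the tumour UMIs in 3 of 108 cells, and the ratio was 1.49 in the Ndufa4KO pair. In the filtered cells the wild-type ratio was 10.61 [8.75, 13.65] on 2 spleen UMIs, and with gates on thinned counts it was 0.99. In neutrophils it was 37.0 and 226 CPM, a ratio of 2.61, and in NK cells 19 tumour UMIs gave 25.5 CPM, below the 40.5 CPM of tumour B cells.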

How the data were processed

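The deposited files hold UMI counts for 32285 genes per cell barcode, made by the authors with Cell Ranger 6.0.0 per the file headers; the submitters' processing notes name Cell Ranger 3.1, Seurat 3.1 and 3.1.4 and the builds mm10 and GRCm38. The other deposited files list barcodes and gene names. Barcodes with at least 500 UMIs and at most 10% mitochondrial UMIs were kept, the gates were applied, and UMIs were summed per gate and library and divided by the gate total. Gate genes were left out of counts of genes. No doublet caller was run; barcodes with 2 or more UMIs of another class's markers were left out as an alternative, with some of those markers chosen after seeing the data. Intervals are exact 95% Poisson, binomial or conditional binomial intervals and cover counting error only. A gene with 0 UMIs on a side was set to 3 counts over the gate, which gives a bound. Per-cell values used cells thinned to 500 UMIs. With 1 pooled library a group there is no test.

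The members and the 35 gene lists were chosen with earlier results of these data known. Genes named were the 12 highest and 12 lowest per gate with at least 50 CPM and 50 UMIs on the higher side, a level of at least 0.25 of that in the library's other barcodes and the same direction past 2-fold in the Ndufa4KO pair; up to 4 per list, with others where a list's defining genes are described; up to 10 shared each way; and markers. Not every gene the rule gives is printed, and a few are not reported here. Python 3.11.15, NumPy 2.4.6, SciPy 1.17.1, pandas 2.3.3 and matplotlib 3.10.9 were used. The summing and calling step was tested on simulated counts.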

Additional observations from a re-analysis of the deposited data

Results flagged for a closer look

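The results here were past 2-fold in opposite directions in the wild-type and the Ndufa4KO pair of libraries, or, for a list, had medians on opposite sides of 0. Each pair is 1 library a side, and the difference between pairs was not tested. The Ndufa4KO tumour neutrophil gate held 89 cells.

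In neutrophils, the median ratio of type II interferon genes was -0.56 in the wild type and 2.02 in the Ndufa4KO pair. It was 0.045 in the filtered wild-type cells, on the same side of 0 as the unfiltered Ndufa4KO pair. Irf1, an interferon-induced transcription factor, had ratios of -1.41 and 1.67. Tapbpl, an editor of peptides on MHC class I, had -1.32 and 1.02. The lipase Lpl had -1.10 and 2.53; its wild-type ratio was 1.52 [-1.38, 4.42] in the filtered cells on 3 UMIs a side, 1.63 with gates on thinned counts and 2.40 in cells without a Csf1r UMI.

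Of 18 measured genes of immature neutrophil granules, 8 were higher and 7 lower in wild-type tumour, with a median of 0.03; in the filtered cells 1 was higher and 8 lower, with a median of -0.94, and in the Ndufa4KO pair none was higher and 13 were lower. Per cell, the list gave a mean of 4.07 UMIs in wild-type spleen and 2.08 in tumour. Of its members and related genes, some were past 2-fold in opposite directions in the pairs. Elane, neutrophil elastase, had ratios of 3.91 and -5.50, Mpo, myeloperoxidase, 1.46 and -5.81, Ctsg, cathepsin G, 2.65 and -3.79, and Fcnb, a ficolin, 2.58 and -2.42; in wild-type tumour the UMIs of each lay in 2 cells, and in the filtered tumour cells 1 UMI of Elane and 0 of the others were left. Ms4a3, a marker of granulocyte-monocyte progenitors, had 3.34 and -2.90, with its UMIs in 3 cells. The Ndufa4KO tumour gate gave 0 UMIs of Elane, Mpo, Ctsg, Fcnb and Ms4a3. Their Ndufa4KO ratios are therefore bounds, each at most the value printed. Prtn3, proteinase 3, had 1.88 and -4.80, with 98.0% of its UMIs in 3 of 15 cells. Its wild-type ratio was short of 2-fold in the filtered cells, at 0.38 [-0.86, 1.52] on 10 tumour and 22 spleen UMIs. Camp, a cathelicidin, had 3.20 and -3.87, with 99.6% of its UMIs in 3 of 4 cells. Met, the receptor of hepatocyte growth factor, had 2.01 and -2.24, with 85.9% of its UMIs in 3 cells.

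In NK cells, the myeloid lectin Clec4d had ratios of 1.53 and -1.53, with 80.3% of its UMIs in 3 of 6 cells. The antiviral gene Rsad2 had -1.06 and 1.09, on 10 tumour UMIs in the wild type and with 57.4% of its spleen UMIs in 3 of 30 cells; its wild-type ratio was 1.84 [0.56, 3.03] in the filtered cells, 1.15 thinned to 500 UMIs and 0.45 with equal weight per cell.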

How the results depend on the processing

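No replicate was left out, since each group has 1 library. No paired analysis was possible because each group has 1 library. Where the text gives no cause for a change below, the cause was not tested.

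Centred on the median ratio, genes higher and lower were 692 and 598 in NK cells and 1109 and 804 in neutrophils, with 749 lower in monocytes, and 168 and 95 among genes shared by the 3 gates. Without a filter on low counts, which tests more genes, they were 2415 and 1736 in NK cells, 2983 and 3732 in neutrophils, 1806 and 2806 in monocytes, and 413 and 546 in all 3. At 1.5-fold, they were 993 and 2428, 1021 and 3387, 1150 and 2657, and 190 and 950. Without abundant genes in the total, 679 genes were lower in NK cells. In cells thinned to 500 UMIs, 386 were higher in monocytes, and 44 and 147 were higher and lower in all 3 gates; with the gates set on counts thinned to 1000 UMIs these last were 55 and 172. The monocyte gate then held 15 tumour and 143 spleen cells. In neutrophils without a Csf1r UMI, 902 of 7011 measured genes were higher and 1661 lower, against 670 and 1902 of 7644 in the whole gate.

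Ratios that changed sign were mostly of genes in few cells. Camp in neutrophils became -0.49 with equal weight per cell, -2.13 thinned to 500 UMIs, -4.6 with thinned gates, -3.41 in the filtered cells and -2.72 without the 5% of cells with most UMIs. In the last setting Mpo was -3.33, Elane -1.93, Prtn3 -1.50, Fcnb -1.61 and Met -0.88, and the monocyte cell cycle median was 0.36. In the filtered neutrophils Chil3 was 0.80, Lpl 1.52, Elane -0.81, Mpo at most -1.07 on 0 tumour UMIs, and the cell cycle median 0.98. That median is over the genes measured in the filtered cells. Over the genes measured without filtering, as for the filtered medians above, it was 0.23. With thinned gates, Lpl was 1.63, Mpo -0.97, Prtn3 -0.16 and the cell cycle median 0.065 in neutrophils, AA467197 was -0.064 in NK cells, and S1pr5 was 0.13 and the residency median -0.12 in monocytes. Thinned to 500 UMIs, neutrophil Mpo was -0.20 and the NK median of inflammatory cytokines -0.92. Lpl was 2.40 in neutrophils without a Csf1r UMI, and Met -0.58 at a mitochondrial limit of 5%. Rsad2 in NK cells was 0.45 with equal weight per cell, 1.15 thinned, 1.84 filtered and 0.36 in cells with an Itgam UMI, where Il7r was -0.41 and AA467197 -0.074. In all, 28 gene values and 5 list medians whose main log2 ratio was at least 1 in size changed sign. Of the rest, 759 gene values moved past their counting interval and 1608 did not. Among list medians, 269 moved by more than the median half-width of their genes' intervals and 804 did not. Sign changes from a smaller main ratio are counted within the rest. Leaving out cells that pass another gate was added after seeing the data.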
